A study of Mus musculus with 9 samples.

Results

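The bone morphogenetic protein (BMP) genes examined here were the 7 ligand genes Bmp2, Bmp3, Bmp4, Bmp5, Bmp6, Bmp7 and Bmp8a and the 3 receptor genes Bmpr1a, Bmpr1b and Bmpr2, identified in the tables by their symbols. They are 10 of the 40548 genes in the expression tables, and all 10 were found. BMPs are secreted dimers of the TGF-β superfamily. A ligand brings together type I receptors, which include the products of Bmpr1a and Bmpr1b, and type II receptors such as the product of Bmpr2. The activated type I receptor phosphorylates Smad1, Smad5 and Smad9, which enter the nucleus with Smad4 and act on genes such as the Id, Msx and Dlx families. The pathway was first known for inducing ectopic bone, and it is needed for osteoblasts to form and mature.

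The RNA came from calvarial osteoblasts of C57BL/6 mice at postnatal day 2-3 per the labels (the methods name C57BL/6J pups of 1 to 5 days), cells that build the flat bones of the skull and that were grown to confluency in dishes. Day 0 cells had not been differentiated, whereas the other groups had spent 4 or 7 days in mineralization medium, which contains ascorbic acid and β-glycerol phosphate, and each group had 3 libraries. According to the methods, pups of both sexes were used, either wild type or carrying a GFP transgene driven by a Col1a1 promoter, and the labels do not give which of these supplied the RNA. All 9 cultures were therefore primary mixtures of calvarial cells without a sort, and mineralized cultures were released with collagenase I before trypsin whereas other cultures received trypsin alone.

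Bmp3, Bmp8a and Bmp2 rose between day 0 and day 7, Bmp5 fell with an adjusted p close to the threshold, and the remaining ligands and the 3 receptors did not pass the test. Levels are given as RPKM, in which reads are divided by the length of the gene and by the depth of the library, which allows genes to be set side by side. Differences between day 7 and day 0 are log2 fold changes of CPM + 0.5, where CPM are divided by depth only, tested with limma, and a gene was called when its Benjamini-Hochberg adjusted p over all genes was at most 0.05. Of 12712 genes tested, 31.2% passed, 12.6% being higher and 18.6% lower at day 7. The balance depended on scaling, since 40.3% of the called genes were higher with the CPM as deposited and 52.1% with median-of-ratios scaling, which moved the median change over all genes from −0.11 to −0.01 on the log2 scale. Against that background 3 of the 10 BMP genes were called higher and 1 was called lower. The deeper day 4 libraries were deposited in separate tables, and for this reason they entered no test. They were compared by the order of the libraries, and the ratios of means, rankings and shares that involve day 4 are descriptions.

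The reads on genes numbered from 7741204 to 14013219 at day 0, from 32820610 to 37306090 at day 4 and from 10675858 to 15622755 at day 7. A group of 5 genes (Gm42418, Lars2, Mir6236, Gm15564 and Dnajc5) took 20.0% of the reads in day 0 replicate 3 and 12.4% in day 7 replicate 2, against 0.403% to 5.17% in the other libraries. Of 6 osteoblast markers, 5 were higher at day 7 and Runx2 was not called, with a log2 fold change of 0.23. Runx2 was called higher, at 0.34 to 0.39, with median-of-ratios or TMM scaling, edgeR, DESeq2 and voomWithQualityWeights. Their summed RPKM was 1801 to 2515 at day 0 and 7976 to 10005 at day 7. All 4 osteocyte markers tested, all 5 macrophage markers tested and all 3 osteoclast markers tested were higher, and the summed macrophage RPKM went from between 5.15 and 8.69 at day 0 to between 10.99 and 13.7 at day 7, with Ptprc, the general marker of blood cells, at 0.144 or less in every library. Summed osteoclast RPKM went from between 101 and 134 to between 234 and 243, most of it Ctsk, while Dcstamp and Calcr were at or near 0. The count of macrophage markers was 3 without day 7 replicate 1. Among 5 chondrocyte markers tested, 2 were higher and 3 lower, with a summed RPKM of 159 to 456 at day 0 and 45.9 to 128 at day 7. The count higher was 1 without day 0 replicate 3, day 7 replicate 1 or the 5 genes. It was also 1 with median-of-ratios or TMM scaling, edgeR, DESeq2 or robust variances. The count lower was 2 with robust variances or voomWithQualityWeights. Both skeletal muscle markers tested (Des and Acta1) were higher (1 without day 7 replicate 2), with Myod1 and Myog at or near 0, and the only adipocyte marker tested, Pparg, was not called by limma (log2 difference 0.55, adjusted p of 0.0822), with Cidec and Lep at 0. Pparg was called higher with median-of-ratios or TMM scaling, the RPKM table, edgeR, voomWithQualityWeights and without the 5 genes. Fabp4, below the level tested, went the other way, with an RPKM of 1.22 to 3.15 at day 0 and 0.460 to 0.603 at day 7. When every gene with a read was tested, 0 of 3 adipocyte markers were higher and 1 was lower. Bglap, Dmp1, Mepe, Sost, Atp6v0d2 and Des had at most 8 reads in any day 0 library, and Ptprc had at most 15. They were tested because of their day 7 level and could hardly have been called lower. None of the 6 endothelial markers reached the level tested, and Emcn and Tie1 were at 0 in all 9 libraries. In such bulk RNA, fewer cells of a type and less RNA per cell cannot be told apart, and the part of these other cells in the BMP values was not tested.

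The sequence upstream of a gene takes part in setting its transcription, and 7 of the 10 members had an entry in the RefSeq promoter table of the GRCm38.p6 assembly. Bmp2, Bmp3 and Bmp7 had none. The 250 bases before the start are shown for Bmp8a, whose level changed greatly, and for Bmp4, the most abundant ligand at day 0, whose change did not pass the test, both genes lying on the minus strand. The Bmp8a window is chr4:123343253-123343502 and the Bmp4 window is chr14:46390670-46390919, each printed 5′ to 3′ in the direction of transcription, with capitals reserved for matches to the motifs searched.
Bmp8a: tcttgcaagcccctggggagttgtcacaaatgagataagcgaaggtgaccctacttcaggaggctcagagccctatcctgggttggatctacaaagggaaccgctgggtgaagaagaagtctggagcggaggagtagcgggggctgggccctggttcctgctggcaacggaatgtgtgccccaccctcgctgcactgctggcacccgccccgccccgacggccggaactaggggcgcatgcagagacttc
Bmp4: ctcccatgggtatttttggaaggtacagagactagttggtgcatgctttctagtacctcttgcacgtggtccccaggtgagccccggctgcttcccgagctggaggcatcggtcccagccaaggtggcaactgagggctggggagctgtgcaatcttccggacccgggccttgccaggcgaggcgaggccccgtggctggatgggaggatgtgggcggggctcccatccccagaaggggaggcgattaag
The letters searched on both strands were GGCGCC, the core of GC-rich elements bound by BMP-activated Smads, CAGACA, a Smad-binding sequence, TGTGGT, a Runx-binding sequence, and TATAAA, the TATA box. No letter of either window is a capital, so none of the motifs was present in them. Of 32851 promoters of the same length, 9.59% held GGCGCC, 17.1% CAGACA, 14.05% TGTGGT and 12.4% TATAAA. Among the other members, GGCGCC was found before the RefSeq starts of Bmpr1a and Bmpr2. CAGACA was found before that of Bmp5 and in 1 of the 3 windows of Bmpr1b, which also held TATAAA in 2 overlapping matches. The windows of Bmp6, Bmpr1a, Bmpr1b and Bmpr2 lie inside the gene spans given below, which come from GENCODE. They are therefore upstream of a RefSeq start but not of the whole gene. None of the members' windows held TGTGGT. Both printed windows were GC-rich, at 62.0% for Bmp8a and 63.2% for Bmp4, against a median of 52.4% for all promoters.

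Bmp3 (ENSMUSG00000029335, GRCm38 chr5:98854415-98884396, plus strand) encodes a BMP that opposes the osteogenic members of the family and limits bone density. Its RPKM was 1.12, 0.833 and 0.788 in the day 0 libraries. At day 4 it was 25.4, 23.7 and 27.7, and at day 7 it was 38.1, 29.8 and 34.1. Every library of a later stage was above every library of an earlier one, and the groups stood far apart. The mean RPKM at day 7 was 37.2 times that at day 0, with most of the gain present by day 4, when it was 27.9 times the day 0 mean. By limma the log2 fold change was 4.996 ± 0.18 (SE, n = 3 libraries per stage), with a 95% interval of 4.63 to 5.36 and an adjusted p of 7.97e-28. An exact two-sided permutation test gave 0.1, the smallest p that 3 libraries against 3 allow. The values rest on 19 to 49 reads per library at day 0 and on 992 to 1660 at day 7. The RPKM of Bmp3 divide by 3112 bases, whereas its exons in the GENCODE M21 annotation cover 7398, and whether reads on the remaining bases were counted is not stated. This length does not enter the fold changes, but it sets the level of Bmp3 beside other genes.

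Bmp8a (ENSMUSG00000032726, chr4:123312645-123343252, minus strand) encodes a BMP best known from the male germ line. Day 0 libraries had an RPKM of 0.267, 0.382 and 0.537, from only 9 to 11 reads each. The day 4 values were 7.46, 8.09 and 6.95, and the day 7 values were 14.7, 15.8 and 13.1. No library overlapped another stage, and Bmp8a was, like Bmp3, higher at day 7 than at day 4 in every library. Its mean RPKM at day 7 was 36.7 times that at day 0 and 1.94 times that at day 4, where the corresponding ratio of day 7 to day 4 for Bmp3 was 1.33. The log2 fold change was 4.63 ± 0.21 (SE), with a 95% interval of 4.21 to 5.05 and a limma adjusted p of 7.89e-24. The mean CPM at day 0 was 0.951, below the minimum of 1 that a gene needed on average over the 6 libraries, so Bmp8a was tested because of its day 7 level.

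Bmp8a has a near copy, Bmp8b, on the same chromosome, and reads that fit both would have been left out of the counts. The coding sequences of 1239 and 1200 bases share 88.0% of 1200 aligned bases, and the longest identical run has 182 bases. In total, 8.74% of all stretches of 50 bases in the Bmp8a transcripts also occur elsewhere, most of them in Bmp8b. Bases 15 to 74 of each coding sequence, taken from the GENCODE M21 transcripts, were picked as the aligned 60 bases with the most differences. The 16 differing bases are in capitals and all shared bases in lower case.
Bmp8a: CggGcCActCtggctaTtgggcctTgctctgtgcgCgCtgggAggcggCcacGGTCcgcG
Bmp8b: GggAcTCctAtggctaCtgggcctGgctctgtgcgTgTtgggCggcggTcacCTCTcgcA
The differences lie scattered along the whole stretch. Bmp8b itself had an RPKM of 0.0184 to 0.0646 at day 0, 0.193 to 0.267 at day 4 and 0.217 to 0.429 at day 7, too low to be tested.

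Bmp2 (ENSMUSG00000027358, chr2:133552159-133562885, plus strand) encodes one of the classical bone-inducing BMPs. RPKM values were 2.19, 2.82 and 2.32 at day 0. They were 7.87, 10.9 and 8.60 at day 4 and 9.39, 7.74 and 7.29 at day 7. Both later stages stood above day 0 in every library, while days 4 and 7 overlapped. The mean was 3.73 times the day 0 level at day 4 and 3.33 times at day 7, so unlike Bmp3 and Bmp8a it showed no separation between the later stages. The day 7 log2 fold change was 1.68 ± 0.18 (SE), with a 95% interval of 1.31 to 2.05 and a limma adjusted p of 1.49e-10.

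Bmp4 (ENSMUSG00000021835, chr14:46383520-46390669, minus strand) encodes the closest relative of BMP2. Its RPKM was 24.3, 21.8 and 18.1 at day 0, 25.0, 18.9 and 22.4 at day 4, and 20.9, 16.5 and 20.1 at day 7. The 3 stages overlapped throughout. The log2 fold change was −0.15 ± 0.16 (SE), with a 95% interval of −0.48 to 0.18 and a limma adjusted p of 0.523. Bmp4 was the most abundant ligand at day 0, and all 9 of its values lay between 16.5 and 25.0 RPKM.

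Bmp5, Bmp6 and Bmp7, which form a group of closely related ligands, were each at or below 1.21 RPKM in every library. For Bmp5 (ENSMUSG00000032179, chr9:75775364-75900310, plus strand) the RPKM was 0.957, 0.872 and 0.577 at day 0, 0.825, 0.632 and 0.806 at day 4, and 0.400, 0.465 and 0.540 at day 7. All day 7 libraries lay below all others, and the log2 fold change was −0.63 ± 0.25 (SE), with a limma adjusted p of 0.0477. This call was near the edge: Bmp5 passed in 9 of the 18 alternative analyses in which it was tested, with an adjusted p from 0.00765 to 0.205, and it was lost without any 1 of the day 7 libraries or without day 0 replicate 1 or 2. The counts behind it were 18 to 54 reads at day 0 and 20 to 34 at day 7. An antisense gene, Gm26903, covers 1878 exon bases of Bmp5, 46.0% of the stretches of 50 bases in Bmp5 also belong to that gene, and the strand setting of the read counting is not stated. Gm26903 itself had at most 3 reads in any library.

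Bmp7 (ENSMUSG00000008999, chr2:172868012-172940321, minus strand) varied widely within each stage. The RPKM was 1.21, 0.458 and 0.964 at day 0, 0.606, 0.220 and 0.359 at day 4, and 0.874, 0.489 and 0.302 at day 7. Replicate 1 was the highest at each stage, and the stages overlapped. Its log2 fold change was −0.56 ± 0.28 (limma SE, which borrows its variance largely from other genes). By limma the unadjusted p was 0.0494 and the adjusted p 0.123, while the exact two-sided permutation test of its own libraries gave 0.3. Without day 0 replicate 2 the adjusted p was 0.00741 with a log2 fold change of −0.91, and without day 7 replicate 1 it was 0.0438 with −0.88. Beside it, Col2a1, the main collagen of cartilage, had an RPKM of 420, 140 and 158 at day 0, 145, 33.8 and 64.3 at day 4, and 92.8, 29.2 and 38.5 at day 7. Col2a1, Col9a1 and Col10a1 were highest in replicate 1 of each stage, Acan and Matn1 at 2 of the 3 stages, and Sox9, the cartilage transcription factor, only at day 7. The part of cartilage cells in the Bmp7 values was not tested.

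Bmp6 (ENSMUSG00000039004, chr13:38345107-38500302, plus strand) had an RPKM of 0.444, 0.520 and 0.482 at day 0, 0.556, 0.489 and 0.437 at day 4, and 0.364, 0.505 and 0.451 at day 7. Its stages overlapped, and the log2 fold change was −0.09 ± 0.27 (SE), with a 95% interval of −0.64 to 0.45 and a limma adjusted p of 0.830. Only 9 to 17 reads per library supported the day 0 and day 7 values, which leaves a wide interval. Its exons share 224 bases with the opposite strand of Txndc5, which had up to 17244 reads in a library.

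**Figure D1:**
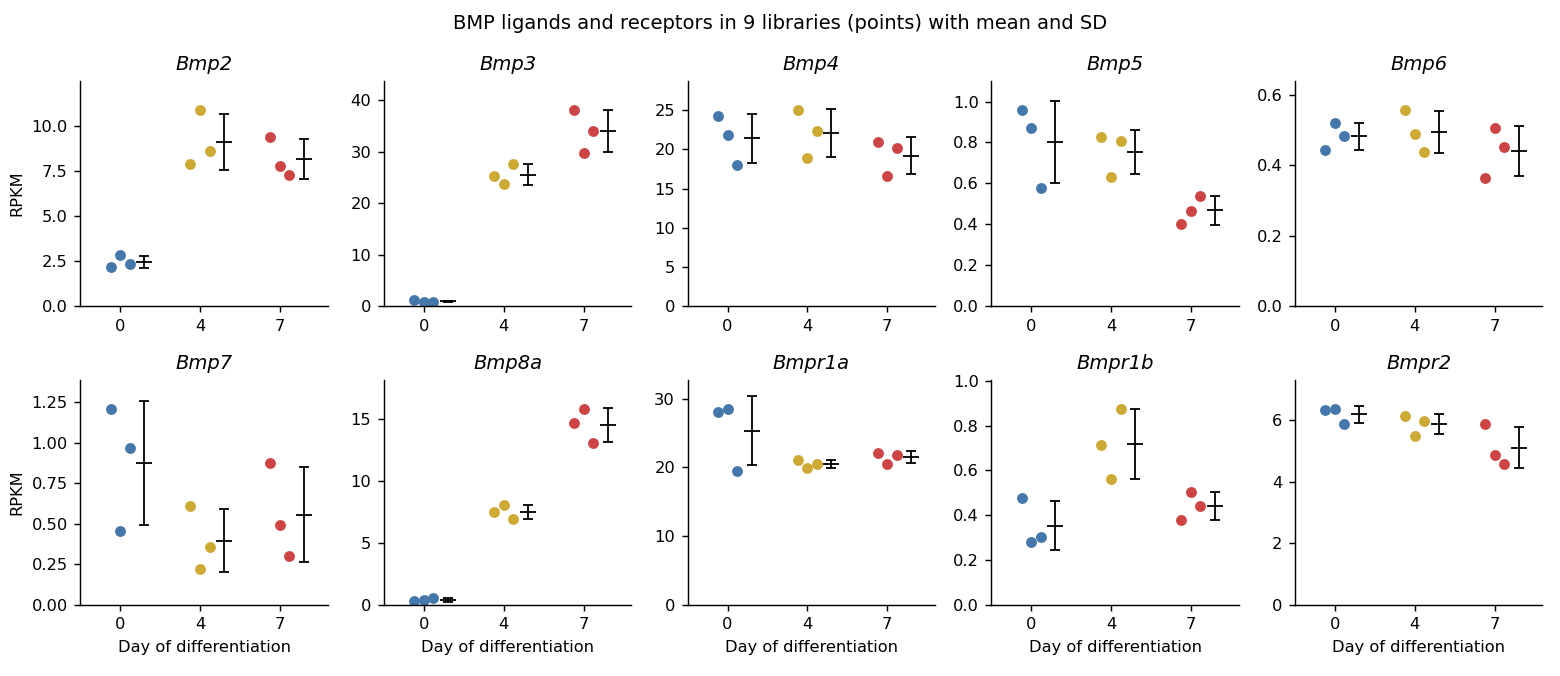
RPKM of each of the 10 BMP genes (vertical axes, each starting at 0 with its own scale) against the day of differentiation, with 1 point per library and the mean and SD of 3 libraries beside the points. Bmp3 and Bmp8a climbed from 1.12 RPKM or less to between 13.1 and 38.1 RPKM at day 7, Bmp2 reached its later level by day 4, and the points of Bmp4, Bmp6 and Bmp7 overlapped between stages.

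Receptors had a narrower range of change than ligands, and 0 of the 3 passed in either direction by limma. None had an unadjusted p under 0.05, and edgeR, DESeq2 and the voomWithQualityWeights fit also called 0 of them. Bmpr1a (ENSMUSG00000021796, chr14:34410734-34503341, minus strand), which encodes the main type I receptor, ALK3, had an RPKM of 28.0, 28.5 and 19.5 at day 0, 21.0, 19.9 and 20.5 at day 4, and 22.2, 20.5 and 21.7 at day 7. Replicates 1 and 2 of day 0 lay above all other libraries, and replicate 3 of day 0 lay below all others. The log2 fold change of Bmpr1a was −0.22 ± 0.16 (SE), with a 95% interval of −0.54 to 0.10 and a limma adjusted p of 0.312. Without day 0 replicate 3 it was −0.40 with an adjusted p of 0.00312, and after leaving the 5 dominant genes out of the CPM, a choice made after seeing the data, it was −0.30 with an adjusted p of 0.0207.

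Bmpr2 (ENSMUSG00000067336, chr1:59763400-59879014, plus strand), the type II receptor gene, had an RPKM of 6.32, 6.36 and 5.87 at day 0, 6.15, 5.50 and 5.97 at day 4, and 5.87, 4.87 and 4.58 at day 7. All 3 day 7 values were below all 3 day 0 values, although the nearest of them, 5.8729 and 5.8730, were practically the same. The log2 fold change of Bmpr2 was −0.28 ± 0.15 (SE), with a 95% interval of −0.59 to 0.03 and a limma adjusted p of 0.167. Without day 0 replicate 3 it was −0.32 with an adjusted p of 0.0325, and without the 5 dominant genes it was −0.36 with an adjusted p of 0.0140.

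Bmpr1b (ENSMUSG00000052430, chr3:141837136-142169425, minus strand), which encodes the type I receptor ALK6, had an RPKM of 0.478, 0.280 and 0.303 at day 0, 0.715, 0.562 and 0.874 at day 4, and 0.381, 0.502 and 0.440 at day 7. It was the only one of the 10 genes with all day 4 libraries above both other stages. The mean at day 4 was 2.03 times that at day 0, and the mean at day 7 was 0.615 times that at day 4. Between day 7 and day 0 the log2 fold change was 0.28 ± 0.25 (SE), with a limma adjusted p of 0.422. The day 4 libraries had 125 to 188 reads on Bmpr1b, the others 14 to 41.

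**Figure D2:**
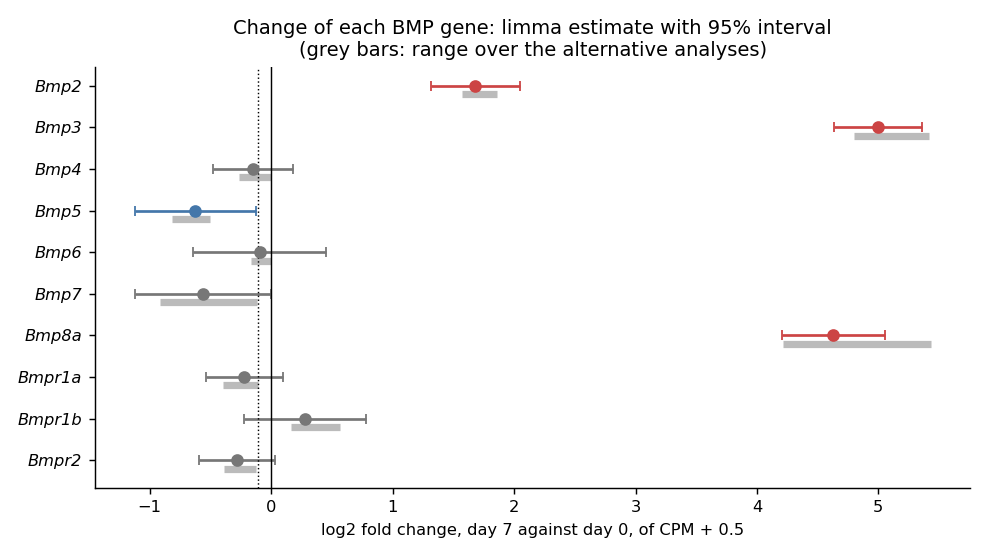
Log2 fold change of each BMP gene, day 7 against day 0, of CPM + 0.5 (horizontal axis), with points for the limma estimate, whiskers for its 95% interval, grey bars for the range over the alternative analyses and a dotted line at the median of all genes, −0.11. Red points were called higher (Bmp2, Bmp3 and Bmp8a), the blue point lower (Bmp5), and grey points were not called, and the intervals of the 3 red points lie above 1.31.

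By the order of libraries, 4 of the 10 genes had every day 4 library above every day 0 library (Bmp2, Bmp3, Bmp8a and Bmpr1b), where 21.4% of 12800 genes did. None of the 10 had every day 4 library below every day 0 library, against 22.0% of genes. With median-of-ratios scaling Bmpr1a did, and without day 0 replicate 3 Bmp5, Bmpr1a and Bmpr2 did. Bmp7 did without day 0 replicate 2 and also without day 4 replicate 1. From day 4 to day 7, Bmp3 and Bmp8a were above in every library, where 13.7% of 12782 genes were, and Bmp5 and Bmpr1b were below, where 25.0% were. That last count was 4 without day 4 replicate 2, with Bmp4 and Bmpr2 added, and 4 without day 7 replicate 1, with Bmp2 and Bmpr2 added. The count above was 3 with median-of-ratios scaling and without day 7 replicate 2, with Bmpr1a added in both.

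Per length, the order of the 10 genes was rearranged between the stages. At day 0 the highest were Bmpr1a (25.4 ± 5.05 RPKM, SD) and Bmp4 (21.4 ± 3.15), which overlapped, then Bmpr2 (6.18 ± 0.271) and Bmp2 (2.44 ± 0.334), each apart from its neighbours. The other 6 genes had means of 0.354 to 0.915 RPKM, in the order Bmp3, Bmp7, Bmp5, Bmp6, Bmp8a and Bmpr1b, and neighbours among them overlapped except Bmp5 and Bmp6. At day 4 Bmp3 (25.6 ± 2.00), Bmp4 (22.1 ± 3.03) and Bmpr1a (20.5 ± 0.592) led, with Bmp4 overlapping both of the others, and Bmp2 (9.11 ± 1.55) and Bmp8a (7.50 ± 0.568) overlapped each other above Bmpr2 (5.87 ± 0.334). The lowest genes at day 4 were Bmp5, Bmpr1b, Bmp6 and Bmp7, with means of 0.754 down to 0.395 RPKM, of which only Bmpr1b and Bmp6 were neighbours without overlap. By day 7 Bmp3 (34.0 ± 4.11) stood apart at the top, a place that rests on the length of 3112 bases. With the M21 exon length Bmp3 would be at 14.3 ± 1.73 RPKM at day 7 and 10.8 ± 0.842 at day 4, below Bmpr1a and Bmp4. These values apply only if reads on the bases beyond the 3112 were counted, which is not stated. In CPM at day 7 Bmpr1a, at 136, was above Bmp3, at 106. Bmpr1a (21.5 ± 0.867) and Bmp4 (19.2 ± 2.33) overlapped, and Bmp8a (14.5 ± 1.38), Bmp2 (8.14 ± 1.11) and Bmpr2 (5.11 ± 0.679) followed without overlap. Bmp7, Bmp5, Bmpr1b and Bmp6 had means of 0.440 to 0.555 RPKM and overlapped. The place of Bmp6 also rests on its length, 2410 bases as deposited against 3900 in M21. With M21 lengths its means would be 0.298, 0.305 and 0.272 at days 0, 4 and 7, the lowest of the 10 genes at each stage. At day 7 it would then lie at 0.225 to 0.312, below Bmpr1b at 0.381 to 0.502. This too applies only if reads on the added bases were counted.

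The make-up of the ligand transcripts changed accordingly. Summed over the 7 ligands, the RPKM was 27.3 ± 3.40 (SD, n = 3) at day 0, 65.9 ± 2.64 at day 4 and 77.3 ± 6.76 at day 7, whereas the sum over the 3 receptors was 31.9 ± 5.36, 27.1 ± 1.03 and 27.0 ± 1.29. Bmp4 made up 78.2% ± 1.88 of the ligand sum at day 0, 33.4% ± 3.41 at day 4 and 24.8% ± 1.68 at day 7. Bmp3 went from 3.34% ± 0.338 to 38.8% ± 2.07 and 43.9% ± 1.82. These shares exchanged their rank between day 0 and day 7 although the level of Bmp4 itself overlapped between stages. With M21 exon lengths, an alternative chosen after seeing the data, they did not. Bmp4 then held 80.1% at day 0 and 33.1% at day 7, and Bmp3 1.45% and 24.9%. This alternative applies only if reads on the bases beyond the deposited lengths were counted, which is not stated. Bmp8a took 1.51% ± 0.702, 11.4% ± 1.30 and 18.9% ± 2.80, and Bmp2 took 9.05% ± 1.64, 13.9% ± 2.97 and 10.5% ± 0.797. Bmp5, Bmp6 and Bmp7 held between 1.79% and 3.22% each at day 0 and between 0.577% and 0.705% each at day 7. Counted in CPM, without division by gene length, Bmp4 was 69.8% at day 0 and 19.6% at day 7, and Bmp3 was 4.17% and 48.6%. Within the receptor sum Bmpr1a held 79.2%, 75.7% and 79.5% at days 0, 4 and 7, Bmpr2 held 19.7%, 21.7% and 18.9%, and Bmpr1b held 1.12%, 2.64% and 1.64%. As shares are relative, a share can fall while the transcript's own level stays, and none of them was tested.

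**Figure D3:**
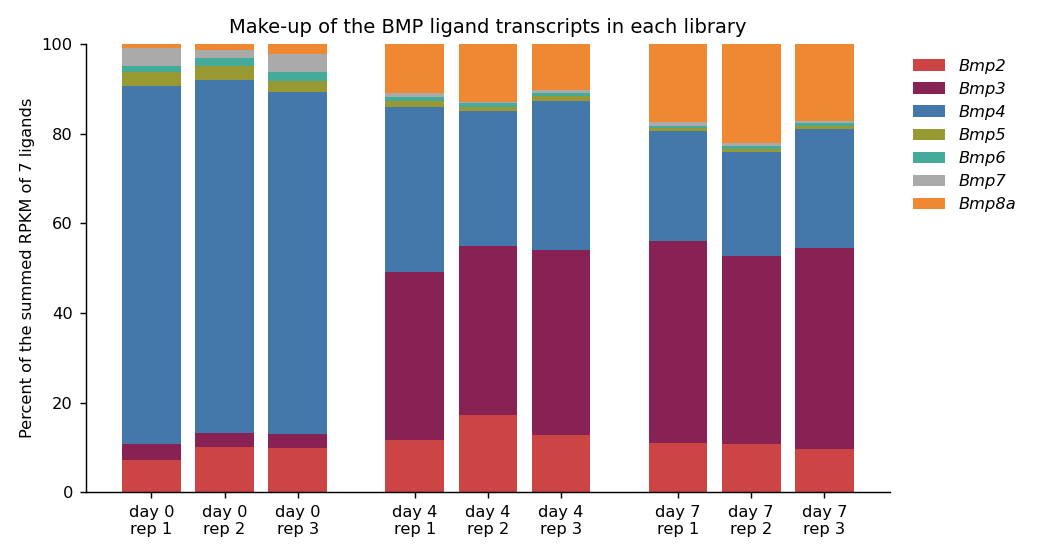
Percent of the summed RPKM of the 7 ligand genes (vertical axis, 0 to 100) taken by each ligand in each of the 9 libraries. Bmp4 fills 76.1% to 79.7% of the day 0 bars, whereas Bmp3 fills 41.8% to 45.0% and Bmp8a 17.2% to 22.1% of the day 7 bars, with the 3 libraries of a stage alike. The bars of Bmp3 use the length of 3112 bases, and its day 7 share was 24.9% with the M21 exon length. The latter applies only if reads on the remaining bases were counted, which is not stated.

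The genes whose course over the 9 libraries was most like that of a member were found among 12782 genes by the root mean square difference of log2(CPM + 0.5), each gene centred on its own mean. For Bmp3, whose own root mean square deviation was 2.27, these were Hspb7 (0.246), Adgrd1 (0.248) and Ngef (0.304). For Bmp8a, with a deviation of 2.01, they were Ncf1 (0.175), Galnt6 (0.216) and Adamts18 (0.230). Hspb7 had RPKM means of 0.372, 10.4 and 15.3 at days 0, 4 and 7, and Ncf1, a subunit of the phagocyte NADPH oxidase, had means of 0.264, 5.49 and 9.69. Bmp5, with a deviation of 0.343, was followed by Gm23130 (0.0757), Armcx5 (0.0932) and Zfp26 (0.103), all of which had lower means at day 7 than at day 4. These neighbours were picked for their likeness in the same libraries, so the likeness is a description.

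Other genes of the pathway moved in both directions, with the counts below to be read against the 12.6% of all genes called higher and the 18.6% called lower. Of 8 other BMP and GDF ligands, 3 were high enough to test. Gdf10, a close relative of Bmp3, had the largest rise, with a log2 fold change of 0.71 ± 0.20 (SE), a limma adjusted p of 0.00529 and a mean RPKM of 6.70 at day 0 and 11.4 at day 7, but it did not pass when day 0 replicate 3 or day 7 replicate 1 was left out. Gdf7 fell by 1.32 ± 0.21 on the log2 scale, from a mean RPKM of 8.22 at day 0 to 3.10 at day 7. Gdf6, a ligand of joints and skull sutures, was the other gene called higher, with a log2 fold change of 0.54 and a limma adjusted p of 0.0477. Without day 7 replicate 1 the count higher was 0, and without any other single library except day 0 replicate 2 it was 1.

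Of 10 shared receptors and co-receptors 9 were tested, 1 of which was higher and 4 lower. Bambi, a pseudoreceptor without a kinase that dampens BMP and TGF-β signalling, rose by 2.11 ± 0.17 on the log2 scale, from a mean RPKM of 3.74 to 16.4. Acvr2a, a type II receptor for activins and BMPs, fell by 1.68 ± 0.17, from 10.7 to 3.23, whereas no fall was called for Bmpr2, and the difference between these receptors was not tested. Rgma, Neo1 and Eng were also lower, while Acvr1, Acvrl1, Acvr2b and Rgmb were not called. Without day 7 replicate 3 only 1 of the receptors and co-receptors was lower.

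Among the 8 Smads and Smurfs, the intracellular transducers and the ligases that degrade them, 1 was higher and 2 were lower. Smad9, a BMP-regulated Smad, had a log2 fold change of 0.87 ± 0.20 (SE), with a limma adjusted p of 0.000633. The inhibitory Smad6 fell by 0.52 ± 0.17, with a limma adjusted p of 0.0173, and this call was lost when day 0 replicate 1, day 7 replicate 2 or day 7 replicate 3 was left out. The count lower was 1 without day 0 replicate 1, day 0 replicate 2 or day 7 replicate 2 and 0 without day 7 replicate 3. Scaling by median of ratios gave 3 higher and 2 lower among the 8. Smad1, Smad4 and Smad5, the core of the pathway, were not called in the CPM as deposited.

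Of 14 extracellular BMP antagonists 13 were tested, of which 4 were higher and 3 lower, and scaling by median of ratios gave 5 higher and 2 lower. Grem1, which binds BMP2, BMP4 and BMP7, rose by 3.51 ± 0.16 on the log2 scale. Its RPKM was 3.48 ± 0.159 (SD, n = 3) at day 0, 79.8 ± 11.2 at day 4 and 40.9 ± 3.35 at day 7, so the day 4 mean was above the day 7 mean. Fst, Fstl3 and Nog were the other antagonists called higher. Sostdc1, a secreted antagonist of BMP and Wnt, fell by 1.23 ± 0.23, with RPKM means of 4.96, 9.98 and 2.03 at days 0, 4 and 7. Fstl1 and Chrdl1 were also called lower.

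Proteases that cleave BMP precursors or chordin gave 3 higher and 0 lower among 5 tested by limma. At an unadjusted p under 0.05 the count lower was 0, as it was with edgeR, DESeq2 and voomWithQualityWeights, and it was 1 without the 5 dominant genes. The count higher was 2 without day 7 replicate 1 or day 7 replicate 3. Pcsk6, a proprotein convertase, rose by 1.91 ± 0.16 on the log2 scale, from a mean RPKM of 16.2 to 60.4, and Pcsk5 and Bmp1 were the others. All 10 BMP target transcription factors were tested, 3 being higher and 5 lower. The count higher was 4 with median-of-ratios or TMM scaling, edgeR, DESeq2 or voomWithQualityWeights. It was 2 without day 7 replicate 1 or day 7 replicate 2. With a mean CPM of at least 5, 9 were tested and 2 of them were higher. Dlx3, a homeobox gene of bone and skin, was called higher, with RPKM means of 0.0586, 1.74 and 5.37 at days 0, 4 and 7. It had at most 3 reads in any day 0 library, so it was tested because of its day 7 level, and the size of its log2 fold change depended on the pseudocount and tool, from 3.71 to 7.65 over the alternatives. Msx2, a homeobox gene of skull growth, fell by 1.91 ± 0.16, from 38.0 through 10.3 to 9.999 RPKM. Hey1 and Id2 were also higher, whereas Msx1, Id4, Atoh8 and Id1 were lower, so the classical BMP target genes did not share a direction.

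The median log2 fold change was −0.09 for the BMP ligands, −0.22 for the BMP receptors, 0.54 for the other ligands tested, −0.16 for the co-receptors, 0.06 for the Smads and Smurfs, 0.07 for the antagonists, 0.47 for the proteases and −0.28 for the target transcription factors, beside −0.11 for all genes tested. Each list held tested members on both sides of 0. Over the 19 alternatives the median was −0.15 to 3.15 for the BMP ligands, positive only with a mean CPM of at least 5, where 4 were tested, and −0.32 to −0.11 for the receptors. It stayed on its side of 0 for the other ligands (0.26 to 0.74), the proteases (0.35 to 0.61) and the target transcription factors (−0.66 to −0.05). The median of the co-receptors ran from −0.32 to 0.12 and was above 0 with voomWithQualityWeights and without day 7 replicate 2. Those of the Smads and Smurfs (−0.08 to 0.17) and of the antagonists (−0.02 to 0.19) were below 0 without day 0 replicate 3 and without the 5 genes.

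**Figure D4:**
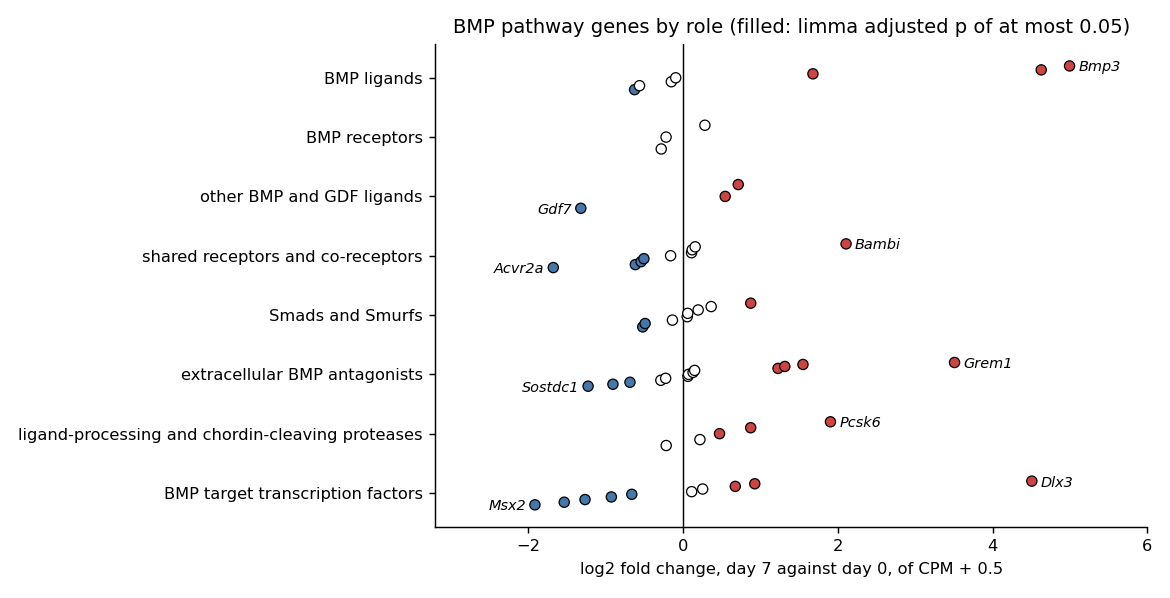
Log2 fold change, day 7 against day 0, of CPM + 0.5 (horizontal axis) for every tested gene of 8 lists of BMP pathway genes (vertical axis), with red points called higher, blue points called lower and open points not called by limma. The ligand list spans from −0.63 to 4.996 while the 3 receptors lie between −0.28 and 0.28, and the antagonists and target transcription factors have called genes on both sides of 0. The point farthest to the right among the target transcription factors is Dlx3, whose position depends on the pseudocount.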

How the data were processed

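Total RNA of 9 calvarial osteoblast cultures (3 each at days 0, 4 and 7) was depleted of ribosomal RNA and sequenced. Per the methods and the submitters' processing notes, the authors aligned the reads with STAR 2.0.4b to the Ensembl release 76 assembly (GRCm38) and counted uniquely aligned, unambiguous reads with featureCounts (1.45 in the notes, written with another point in the methods). The strand setting is not given in the sources used here. The authors deposited CPM, scaled to each library's reads on genes, and RPKM, which also divide by gene length. Groups and replicate numbers follow the sample titles. Days 0 and 7 share a table with 40824 lines for 40548 genes, and day 4 has its own with 40799 lines for 40526 genes. Repeated lines were used once.

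At least 99.998% of the deposited CPM values were whole multiples of 1 read (tolerance 0.02 reads), so the reads were recovered. Libraries of a stage had Spearman correlations of 0.988 to 0.996 and differed by more than sampling noise, with 13.1 as the lowest chi-square per degree of freedom. Counting error is the only error that read numbers show. Although the study calls the libraries biological replicates, the labels name no separate animals or cultures, so p-values refer to these libraries only. Those of limma rest on a variance drawn largely from all genes and do not measure the spread of a single gene alone.

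Day 7 was tested against day 0 by limma 3.58.1 in R 4.3.3, allowing the variance to follow the mean, on log2(CPM + 0.5), which understates changes of low genes. The 12712 genes tested had an average CPM over these libraries of 1 or more. A further 11075 genes with reads were left out. The prior had 42.9 degrees of freedom against 4 residual ones. Single genes also had an exact permutation test of mean CPM. The alternatives were other pseudocounts, filters and scalings, RPKM, edgeR 4.0.16, DESeq2 1.42.0 and voomWithQualityWeights on recovered reads, whose weighting the study's methods name and which was here fitted to the same 6 libraries and 12712 genes, robust variances, a replicate block, each library left out, and, chosen after seeing the data, CPM without 5 dominant genes and M21 exon lengths. The limma script was tested on simulated data. Same-numbered day 0 and day 7 libraries did not deviate together (correlations of −0.02, −0.18 and −0.44), so the numbers were not taken as pairs. The members and gene lists were chosen with earlier results of these data known. All 10 members are named, and of each other list the largest rise and largest fall past the threshold, with other genes named only by their call. Coordinates and transcripts are from GENCODE M21 and promoters from RefSeq, both on GRCm38. Protein sequences were not analysed here.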

Additional observations from a re-analysis of the deposited data

How the results depend on the processing

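Bmp2, Bmp3 and Bmp8a were the genes called higher in all 19 alternatives, with log2 fold changes of 1.57 to 1.86, 4.80 to 5.42 and 4.21 to 5.43. The size of their adjusted p depended strongly on the analysis. Its largest value was 7.29e-06 for Bmp2 (limma with median-of-ratios scaling). With voomWithQualityWeights it reached 1.06e-08 for Bmp3 and 5.92e-07 for Bmp8a. The count of BMP genes called lower, 1 as reported, was 0 with a pseudocount of 0.1, with every gene that had a read, with a mean CPM of at least 5 (where Bmp5 was not tested), with DESeq2 and with the replicate block, 3 without the 5 dominant genes, and 0 to 3 when 1 library was left out. The replicate block gave 3413 called genes against 3971. All genes called numbered 6120 with TMM and voomWithQualityWeights, 6324 without the 5 genes, and 2882 to 6330 with 1 library left out (6330 without day 0 replicate 3). Of these calls 40.3% were higher as reported, 51.4% to 52.6% with median-of-ratios or TMM scaling, edgeR, DESeq2 or voomWithQualityWeights, 28.0% without the 5 genes, 25.8% without day 0 replicate 3, and 50.1% and 50.6% without day 0 replicates 1 and 2.

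BMP genes with all day 4 libraries below day 0 numbered 0 as reported, 1 with median-of-ratios scaling, 2 without the 5 genes and 0 to 3 with 1 library left out. Those with all day 7 libraries below day 4 numbered 2, and 2 to 4 with 1 library left out. Shares of the ligand sum in CPM were 4.17%, 43.0% and 48.6% for Bmp3 and 69.8%, 26.5% and 19.6% for Bmp4 at days 0, 4 and 7. With M21 exon lengths they were 1.45%, 21.2% and 24.9% for Bmp3 and 80.1%, 43.0% and 33.1% for Bmp4. These last shares apply only if reads on the added exon bases were counted, which is not stated. The cause of these shifts was not tested, except that the shares follow from the length divided by. The 9 to 54 reads per day 0 library on Bmp3, Bmp5, Bmp6, Bmp8a and Bmpr1b limit how closely their folds are known.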
